A study of Mus musculus with 4 samples.

Results

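The genes described here are host transcripts of microRNAs, or transcripts that share a row with one, in mouse TBV2 embryonic stem (ES) cells, read as long RNA. They are the rows of the authors' deposited table in which a microRNA hairpin shares a row with another symbol. A row was taken when it held 2 or more symbols, at least 1 of them a microRNA, and reached 1 FPKM (a fragment count adjusted for transcript length and for the size of the library) in either condition. Rows of imprinted hosts, small nucleolar RNA hosts and a few other named genes were left out. This gave 15 rows of 27542, which hold 26 hairpin symbols. The members were thus chosen by their level in the same comparison that is described below, so the differences are given as a description.

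The study compared 1 library of TBV2 cells labelled NT (genotype control) with 3 libraries from separate clones, each a knockdown (KD) of the long noncoding RNA T-UCstem1, a transcript of an ultraconserved element. Both groups grew in serum with LIF, the cytokine that maintains self-renewal, and on feeders at high density according to the design text. The level of T-UCstem1 itself was not analysed here. Each KD library is 1 clone, and the control is 1 library whose clonal state the labels do not give. The authors deposited 1 FPKM per row for the control and 1 for the KD clones together, so no SD or n accompanies a value and no clone can be read by itself.

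A microRNA is cut out of a long primary transcript. The nuclear enzyme Drosha and its partner Dgcr8 release a hairpin, Dicer1 trims it in the cytoplasm, and an Argonaute protein carries 1 arm of it to messenger RNAs that pair with its seed, bases 2 to 8. ES cells are known for the miR-290 and miR-17 families, which favour rapid division, and for keeping let-7, a family of differentiated cells, low. The FPKM of a host row reads the primary or spliced host transcript and not the mature microRNA.

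The label of these rows as hosts was checked against annotation. In RefSeq, 11 of the 26 hairpins lie inside the other gene of their row and 8 outside it. The remaining hairpins lie across an end of that gene or are in the let-7 row, which names no other gene. The name host row is kept for all rows as a label alone. Of the other symbols 12 are long noncoding RNAs and 1, Lemd1, is protein coding. In the Mir1291 row the other symbol is the small nucleolar RNA Snora34, and the let-7 row holds 3 hairpins and no host symbol. In GENCODE on GRCm38, 11 of the 26 hairpins lie within an exon of at least 1 transcript, 6 lie only within introns, and the rest lie in no annotated transcript of the same strand other than a microRNA. Those within an exon include the 3 let-7 hairpins, which lie in the long noncoding RNA 6720427I07Rik, a gene their row does not name.

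The mature sequences show which rows hold arms with the same seed. RefSeq (GRCm38.p6) gave at least 1 arm for 24 of the 26 hairpins, with 40 distinct arms and 31 distinct seeds. Only 3 seeds occurred in 2 rows, and those were the rows of Mir17hg and of Kis2, the chromosome X copy of that cluster. Sequences run 5′ to 3′ with the seed in capitals, and the first group shows arms of both rows with, for comparison, miR-290a-3p. The arms of miR-20a, miR-20b and miR-106a share 1 seed across the rows, and the 5p arms and the 3p arm of miR-19b hold the other shared seeds. The seeds of miR-18b, miR-92a and miR-363 are from the Kis2 row alone.
miR-20a-5p (Mir17hg row): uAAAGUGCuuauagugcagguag
miR-20b-5p (Kis2 row): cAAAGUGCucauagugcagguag
miR-106a-5p (Kis2 row): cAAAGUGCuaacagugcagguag
miR-19b-3p (both rows): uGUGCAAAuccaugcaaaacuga
miR-19b-1-5p (Mir17hg row): aGUUUUGCagguuugcauccagc
miR-19b-2-5p (Kis2 row): aGUUUUGCagauuugcaguucagc
miR-18b-5p (Kis2 row): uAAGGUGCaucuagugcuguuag
miR-92a-3p (Kis2 row): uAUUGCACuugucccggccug
miR-363-3p (Kis2 row): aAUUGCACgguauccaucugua
miR-290a-3p (D7Ertd143e row): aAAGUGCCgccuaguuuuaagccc
miR-20a-5p and miR-20b-5p had the same base at 21 of 23 positions, and miR-20a-5p and miR-106a-5p at 20 of 23. The seeds of miR-20a-5p and miR-290a-3p share a run of 6 of their 7 letters, which starts at base 3 of the former and base 2 of the latter.

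The second group shows arms of 5 further rows described below, again with seeds in capitals.
let-7a-5p: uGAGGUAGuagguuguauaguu
let-7d-5p: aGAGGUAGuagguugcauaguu
let-7f-5p: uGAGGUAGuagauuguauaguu
miR-15a-5p (Dleu2 row): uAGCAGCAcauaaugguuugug
miR-16-5p (Dleu2 row): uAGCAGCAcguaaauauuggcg
miR-22-3p (Mir22hg row): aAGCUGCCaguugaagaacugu
miR-101a-3p (E130102H24Rik row): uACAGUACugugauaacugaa
miR-196a-5p (Gm53 row): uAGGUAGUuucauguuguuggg
The 3 let-7 arms share 1 seed, as do miR-15a-5p and miR-16-5p. The seeds of let-7a-5p and miR-196a-5p share a run of 6 of 7 letters, from base 3 in let-7a-5p and base 2 in miR-196a-5p.

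None of the 15 rows was called by the authors, where 1.15% of all 15477 tested rows were called. At an unadjusted deposited p under 0.05 there were 2 members, against 8.88% of all tested rows. On the scale log2((KD FPKM + 1)/(NT FPKM + 1)), in which a negative value is lower in the KD, 12 members lay below 0 and 3 above. Over all 13462 rows of at least 1 FPKM, 48.6% lay below 0. The members' median was -0.31, with quartiles of -0.61 and -0.06, and the median of all those rows was 0.01, with quartiles of -0.19 and 0.22. The members' median was -0.081 with no level minimum and -0.18 with a pseudocount of 5 FPKM. Of the members 1 was at least 2-fold lower and 0 at least 2-fold higher, where the shares over all rows were 0.973% and 3.16%. All 15 rows were tested by the authors, 14 reached 1 FPKM in both conditions and 1 only in the control.

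**Figure D1:**
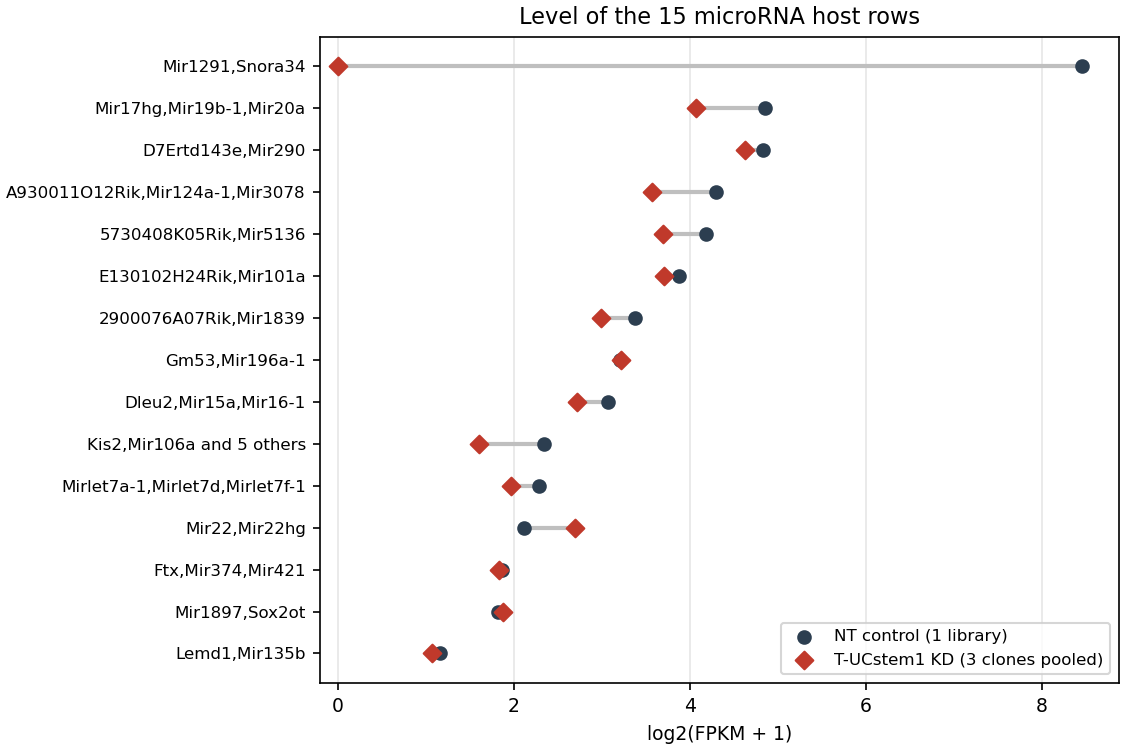
Level of each of the 15 host rows as log2(FPKM + 1), with circles for the NT control library and diamonds for the 3 KD clones pooled by the authors. Rows are ordered by their control level. The diamond lies left of the circle in 12 rows, and the row at the top runs from 349 FPKM in the control to a listed 0 in the KD.

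Among the families that favour division, the Mir17hg row had the lowest log2 fold at a pseudocount of 1 FPKM, while Kis2 was the lower of the pair by ratio and at a pseudocount of 0.1 FPKM (-0.97 against -0.81). Mir17hg is the host of the miR-17 to miR-92 cluster, a Myc-responsive locus that promotes proliferation (mm9 chromosome 14, 115443379 to 115445950). It stood at 15.8 FPKM in KD cells against 27.8 FPKM in control cells, a log2 fold of -0.78. The KD level was 56.9% of the control level. Its q in the authors' deposited table was 0.236, with a p of 0.00875, and it was not called. The row holds Mir20a and Mir19b-1 of the cluster, which both lie within a Mir17hg exon in GENCODE. In RefSeq Mir20a lies outside Mir17hg and Mir19b-1 lies across its end. The hairpins Mir17, Mir18 and Mir19a have rows of their own at lower coordinates next to this row, each listed at 0 in both conditions and not tested.

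The Kis2 row lies on chromosome X (mm9, 50094194 to 50097770) and holds 6 hairpins of the paralogous cluster of Mir106a and Mir363. In RefSeq 5 of them lie outside Kis2 and Mir106a lies across its end. It was at 2.04 FPKM in KD cells against 4.07 FPKM in control cells, a log2 fold of -0.74. Its q in the authors' deposited table was 0.760. Mir17hg was thus the more abundant of the pair on the FPKM scale in both conditions, and both rows stood at similar shares of control, 56.9% and 50.0%. Myc itself was at 9.27 FPKM in KD cells against 5.92 FPKM in control cells, and its paralog Mycn at 31.9 and 30.2 FPKM. Neither was called, and any part of these genes in the Mir17hg and Kis2 values was not tested.

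D7Ertd143e shares its row with Mir290, the first hairpin of the ES cell cluster miR-290 to miR-295 (mm9 chromosome 7, 3217863 to 3221053), and was the most abundant member in the KD. Mir290 lies outside D7Ertd143e in RefSeq and in no same-strand GENCODE transcript, so annotation does not show this row to be its host. It stood at 23.6 FPKM in KD cells against 27.5 FPKM in control cells, a log2 fold of -0.21, and the authors' deposited table gives a q of 0.999. The hairpins Mir290b and Mir292b, which share its locus, were listed at 0 in both conditions. Reads of overlapping genes cannot be told apart here, since the use of strand is not stated. The 4 hairpins of the related miR-302 cluster, Mir302a to Mir302d, were also listed at 0 in both conditions and have no host among the members.

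The row of Mirlet7a-1, Mirlet7d and Mirlet7f-1 (mm9 chromosome 13, 48630570 to 48633641) was at 2.92 FPKM in KD cells against 3.85 FPKM in control cells, a log2 fold of -0.31. Lin28a, which blocks the maturation of let-7, was at 69.6 against 67.6 FPKM and its paralog Lin28b at 5.46 against 7.07 FPKM. None of the 3 was called. The host row of another let-7 pair, Mirlet7bhg, was at 0.0247 FPKM in KD cells, listed at 0 in the control, and so is no member.

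Dleu2, the noncoding host of the cell-cycle brake microRNAs miR-15a and miR-16 (mm9 chromosome 14, 62217063 to 62301210), was at 5.56 FPKM in KD cells against 7.37 FPKM in control cells. On the log2 scale it lay at -0.35, and its q was 0.987 in the authors' deposited table. Trim13, a ubiquitin ligase gene in the same locus, was at 22.4 against 28.5 FPKM, a log2 fold of -0.33. A second Trim13 row there was at 1.09 against 1.05 FPKM, a log2 fold of 0.03. The rows of Kcnrg were at 0.766 against 0.620 FPKM (log2 fold 0.12) and 0.419 against 0.502 FPKM (-0.08, not tested by the authors). The rows of this locus thus lay on both sides of 0, with those above 0 at low levels. E130102H24Rik, which holds Mir101a, was at 12.0 FPKM in KD cells against 13.7 FPKM in control cells, a log2 fold of -0.18.

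Mir22hg was the member with the largest value above 0. This short noncoding host on chromosome 11 (mm9, 75275041 to 75280192) carries Mir22 within an exon, which also falls in an exon of a Tlcd2 transcript, and stood at 5.48 FPKM in KD cells against 3.34 FPKM in control cells. The log2 fold was 0.58, 1.64 times the control level. The p was 0.113 and the q 0.780 in the authors' deposited table, so it was not called. The hairpin of this member with the highest value is printed with both mature arms in capitals.
Mir22 (GRCm38 chr11:75463716-75463810, plus strand): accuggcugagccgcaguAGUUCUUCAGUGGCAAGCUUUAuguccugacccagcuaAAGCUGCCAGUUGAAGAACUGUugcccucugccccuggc

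**Figure D2:**
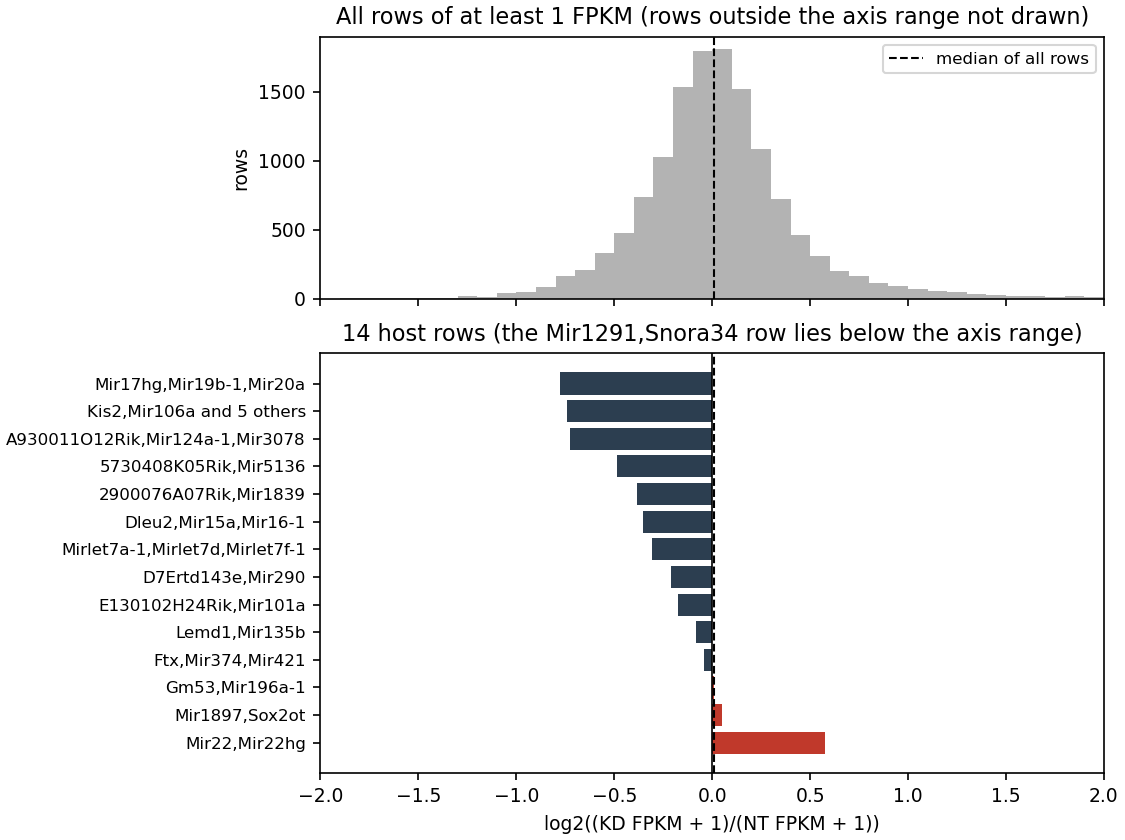
Upper panel, number of rows of at least 1 FPKM per bin of log2((KD FPKM + 1)/(NT FPKM + 1)), with the dashed line at their median of 0.01; 15 rows below and 97 above the axis range are not drawn. Lower panel, the same log2 value for 14 host rows as bars, from -0.78 for Mir17hg to 0.58 for Mir22hg.

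Rows with neural and body-pattern microRNAs were also present at these levels. A930011O12Rik, now named Mir124a-1hg, hosts miR-124, a microRNA of neurons (mm9 chromosome 14, 65206952 to 65212798). It was at 10.8 FPKM in KD cells against 18.6 FPKM in control cells, a log2 fold of -0.73. With a p of 0.00865 it shared the members' smallest q, 0.236, with Mir17hg in the authors' deposited table. Its KD level was 58.3% of control, so that this neural host, Mir17hg and Kis2 formed the 3 lowest rows after the Snora34 row.

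Gm53, which lies in a Hox cluster next to Mir196a-1, was at 8.29 FPKM in KD cells against 8.23 FPKM in control cells. Mir196a-1 lies outside Gm53 in RefSeq and in no same-strand GENCODE transcript, so annotation does not show Gm53 to be its host. Sox2ot, the long transcript that overlaps Sox2 and holds Mir1897, was at 2.66 against 2.54 FPKM, a log2 fold of 0.05. Sox2, the pluripotency factor in the same locus, was at 216 against 257 FPKM, a log2 fold of -0.25. Lemd1, a protein-coding gene with Mir135b in an intron, had the lowest control level of the members, at 1.10 against 1.22 FPKM. The locus of Lemd1 is split over several rows, and a second Lemd1 row was at 0.601 against 1.39 FPKM. The member rows of Gm53, Sox2ot and Lemd1 differed by at most 0.122 FPKM between conditions. For Lemd1 this does not hold for the second row, which had a log2 fold of -0.58 and was not called.

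Ftx, a noncoding gene of the X-inactivation centre that holds Mir374 and Mir421 (mm9 chromosome X, 100755838 to 100819093), was at 2.55 FPKM in KD cells against 2.65 FPKM in control cells. That is a log2 fold of -0.04, where Kis2 on the same chromosome had -0.74. Of 2 less studied rows, 2900076A07Rik with Mir1839 was at 6.96 against 9.39 FPKM, a log2 fold of -0.38. 5730408K05Rik, whose end Mir5136 overlaps in RefSeq, was at 11.9 against 17.1 FPKM, a log2 fold of -0.48. Its p in the authors' deposited table was 0.693, far above that of the Mir124a-1 host at a similar level. The 1810009A15Rik row that shares this locus was at 82.7 against 61.9 FPKM, on the other side of 0, and reads of overlapping transcripts there cannot be told apart.

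The Mir1291 and Snora34 row stood apart from all others. It was listed at 0 in the KD and at 349 FPKM in the control, so no ratio is given. On the log2 scale with the pseudocount its value of -8.45 was the lowest of all 13462 rows, yet its p in the authors' deposited table was 0.456 and it was not called. Mir1291 lies within an intron of Kansl2, a chromatin regulator gene, whose own main row was at 39.2 FPKM in KD cells against 37.0 FPKM in control cells. The next 3 lowest rows of the table also held a small RNA and were listed at 0 in the KD. They were Snora65, Mir1957b and Snora16a, at 162, 88.9 and 29.7 FPKM in the control. A value on so short a transcript can rest on few fragments, and a listed 0 can be a failed estimate, but neither was tested here. The authors marked the Mir1291 and Snora34 row as tested, and no fragment counts were available. The hairpin is printed, with the mature arm in capitals, since in RefSeq it overlaps an end of Snora34 and reads of the 2 cannot be told apart.
Mir1291 (GRCm38 chr15:98519762-98519878, minus strand): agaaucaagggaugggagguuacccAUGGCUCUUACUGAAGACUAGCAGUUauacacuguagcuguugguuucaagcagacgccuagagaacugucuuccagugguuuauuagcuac
Without this row the members' median was -0.26, with 11 of 14 rows below 0, 0 rows at least 2-fold lower and a range from -0.78 to 0.58.

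Of 40 rows with several symbols that include a microRNA, 22 were under 1 FPKM and 3 were left out by name. Nearest below the minimum were 6430411K18Rik with Mir127 (0.382 FPKM in KD cells against 0.886 FPKM in control cells), the Mir181c and Mir181d row (0.641 and 0.638 FPKM) and C430049B03Rik with Mir322 (0.331 and 0.323 FPKM). Nearest above it were Lemd1, Ftx and Sox2ot. Of the 22 rows, 14 were listed at 0 in both conditions. Of the 3 left out by name, the Meg3 row was called lower, at 26.8 FPKM in KD cells and 69.9 FPKM in control cells (q 0.00815 in the authors' deposited table). The Mirg row was at 3.81 against 10.3 FPKM and the Snhg4 row at 8.69 against 16.8 FPKM, and neither was called. The log2 folds of Meg3, Mirg and Snhg4 were -1.35, -1.23 and -0.88. All 3 thus lay below every member except the Mir1291 and Snora34 row.

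Hairpins that have a row to themselves were mostly listed at 0. Of 898 such rows, 873 (97.2%) were listed at 0 in both conditions and 17 reached 1 FPKM. These 17 had a median log2 fold of -0.07, and 11 of them lay below 0. Rows with several symbols and no microRNA, of which 319 reached 1 FPKM, had a median of 0.03 and quartiles of -0.12 and 0.18. Of those, 134 lay below 0. The difference of the host rows from either set was not tested, since each row has 1 value per condition.

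The genes that make and use microRNAs were not called. Of 32 such genes 31 were tested, with 0 called higher and 0 lower, and 1 had an unadjusted deposited p under 0.05. Over all tested rows the shares were 1.15% and 8.88%, so these counts are no result about the pathway. The 31 that reached 1 FPKM had a median log2 fold of -0.07 and ranged from -0.60 to 0.39. In the nucleus, Drosha was at 41.5 FPKM in KD cells against 37.9 FPKM in control cells and Dgcr8 at 18.5 and 20.6 FPKM. Xpo5, which exports the hairpins, was at 44.3 and 42.9 FPKM. Dicer1 was at 17.7 and 21.8 FPKM.

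Of the Argonaute genes, Ago2, the slicing member, was at 32.8 FPKM in KD cells against 39.4 FPKM in control cells, and Ago1 at 14.7 and 17.3 FPKM. The lowest value of the list was that of Mov10, a helicase of the silencing complex, at 25.3 and 38.9 FPKM. Its log2 fold was -0.60, and in the authors' deposited table its p was 0.0126 and its q 0.285. Among Drosha, Dgcr8, Xpo5, Dicer1, Ago1 and Ago2 the log2 folds ran from -0.29 (Dicer1) to 0.13 (Drosha).

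**Figure D3:**
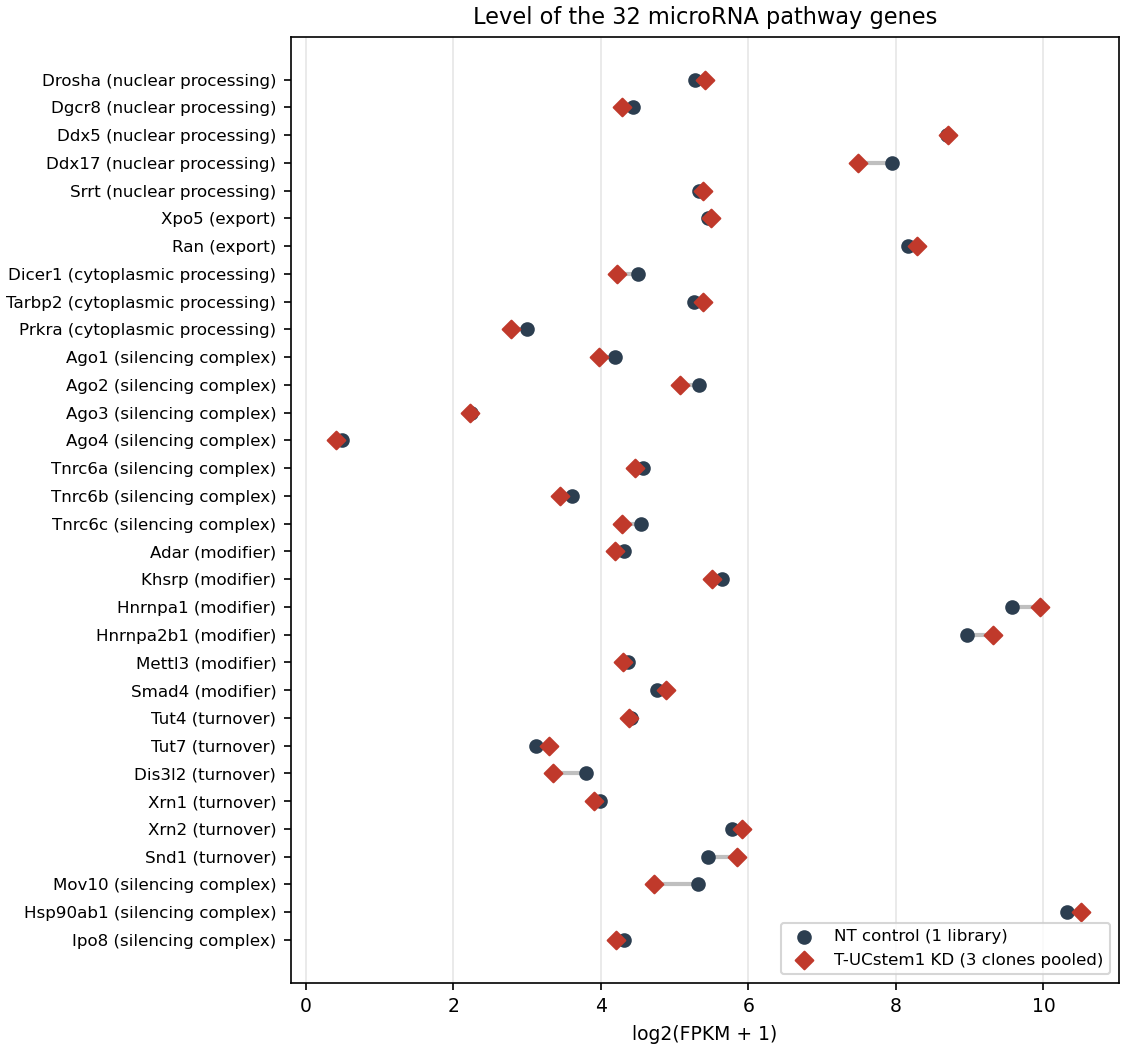
Level of the 32 microRNA pathway genes as log2(FPKM + 1), with circles for the NT control library and diamonds for the 3 KD clones pooled. The 2 marks of each gene lie close together, and Mov10 has the widest gap below its control level, from 38.9 to 25.3 FPKM.

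As another readout, chosen after the values were seen, genes were grouped by matches to the members' seeds. A site was the reverse complement of bases 2 to 8 of an arm, on the transcript strand, in the longest GENCODE 3′ UTR of each gene (GRCm38). Of 11838 genes with 1 symbol and at least 1 FPKM, 10601 had a 3′ UTR of 100 nt or more. A site of the seed of miR-20a-5p and miR-106a-5p, here the miR-17 family, was found in 15.1% of them. The 1598 genes with such a site had a median log2 fold of 0.02, and the genes without one 0.03. For 10 seed families the median of genes with a site minus that of genes without ranged from -0.03 (miR-15/16) to 0.01 (miR-92 family), and was below 0 in 8 of them.

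Genes with a site had longer 3′ UTRs, for the miR-17 family a median of 2547 nt against 1051 nt, so the same medians were taken within ranges of length. From 500 to under 1000 nt the differences ran from -0.04 to 0.04, with 6 families below 0 and 4 above. From 1000 to under 2000 nt they ran from -0.06 (let-7) to 0.07 (miR-92 family), with 3 families below 0 and 7 above. From 2000 to under 4000 nt they ran from -0.02 to 0.02, with 5 families on either side. The let-7 and miR-15/16 differences were below 0 in each of the 3 ranges and the miR-17 family, miR-19 and miR-290a differences above it, though by almost nothing for let-7 from 500 to under 1000 nt and for the miR-17 family from 1000 to under 2000 nt. A match is a stretch of letters and not a shown target, many genes hold sites of several families, and no test was made.

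**Figure D4:**
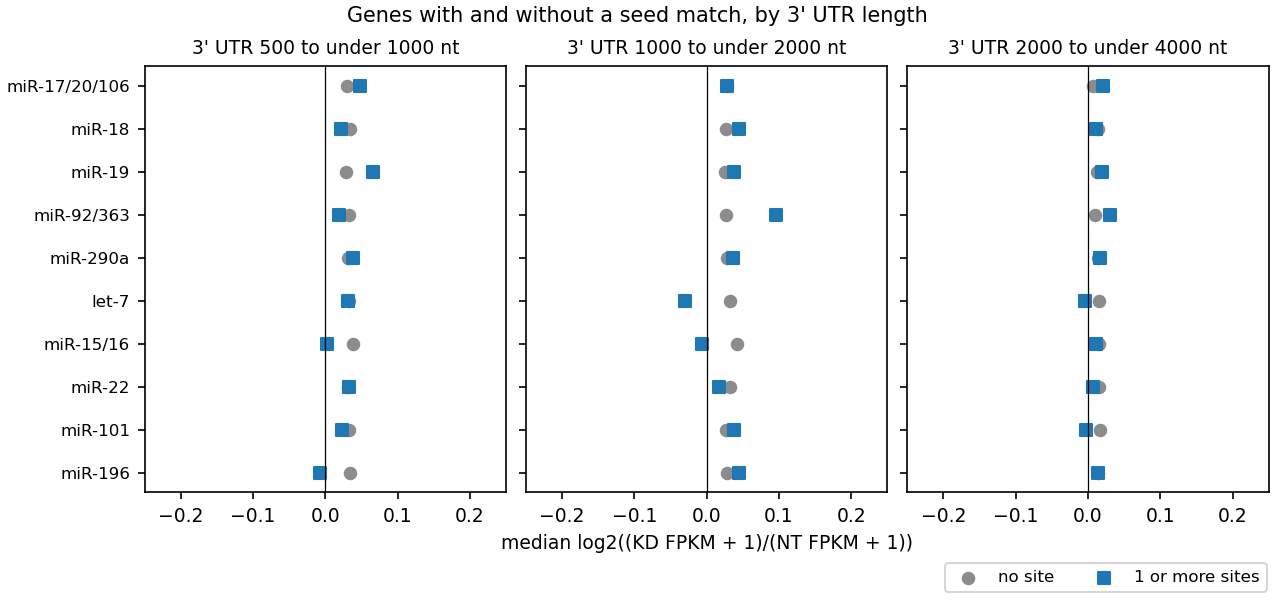
Median log2((KD FPKM + 1)/(NT FPKM + 1)) of genes with at least 1 seed match in the 3′ UTR (squares) and of genes with none (circles), for 10 microRNA families and 3 ranges of 3′ UTR length. Both marks lie within 0.1 of 0 in every family and range.

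Markers of cell types gave the setting of these values. The 6 ES cell markers (Pou5f1, Sox2, Nanog, Zfp42, Esrrb and Tdgf1) summed to 3254 FPKM in KD cells against 3183 FPKM in control cells, and none was called. Of these 3 had a log2 fold above 0 and 3 below, from -0.25 (Sox2) to 0.17 (Nanog). All 8 primitive endoderm markers, Gata4 and Gata6 among them, were called higher and summed to 373 against 53.4 FPKM. Of 12 feeder fibroblast markers 4 were called higher (Tnc, Bgn, Fbln2 and Col6a3), and the 12 summed to 63.6 and 17.5 FPKM. Over all tested rows 1.15% were called in either direction. The largest differences were those of Tnc (16.3 against 2.66 FPKM), Fbln2 (14.3 against 2.48 FPKM) and Bgn (13.3 against 2.05 FPKM). Of the 8 feeder markers that reached 1 FPKM, 7 lay above 0 and 1, Pdgfrb, below it at 2.57 against 2.73 FPKM. Postn was at 0.0452 FPKM in KD cells against 0.00836 FPKM in control cells, and Lum was listed at 0 in both. The part of these cells in the values of the host rows was not tested. In bulk RNA, a change in the number of cells of a type and a change in RNA per cell cannot be told apart, in either direction.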

How the data were processed

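RNA of 4 libraries, 1 NT control and 3 KD clones, was sequenced by the authors. The deposited values are FPKM from TopHat, Cufflinks and Cuffdiff on mm9, per the submitters' processing notes. The sources used here give no version, annotation, strand or scaling. Per the file headers there is 1 FPKM for a condition named control, taken as NT, and 1 for a condition named treated, taken as the pooled KD clones. The deposited p-value and q-value are Cuffdiff's, per the file headers. With 1 control library they hold no measured spread between control cultures.

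Log2 folds used a pseudocount of 1 FPKM, which understates changes of low rows. No test was run, and the depth of the libraries was not estimated, so no interval is given. Where a symbol had several rows, that of the highest mean FPKM was used. Locus starts in the file count from 0, since end minus start equalled the RefSeq hairpin length in 249 of 271 hairpin rows, and are printed counted from 1. Hairpins, exons and 3′ UTRs are on GRCm38 (RefSeq and GENCODE M21) and no coordinates were converted. The member rule and the seed matching were tested on simulated data. Python 3.11.15 and pandas 2.3.3 were used.

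Every member is named. Pathway genes named were the core enzymes and called genes; Mov10, Myc, Mycn, the Lin28 genes, genes sharing a member's locus and the lowest rows were added after their values were seen. Members and lists were chosen with earlier results of these data known.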

Additional observations from a re-analysis of the deposited data

How the results depend on the processing

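The host rows' median log2 fold of -0.31 stayed below 0 under every alternative tried. It was -0.39 with a pseudocount of 0.1 FPKM and -0.18 with 5 FPKM. It was -0.081 with no level minimum (23 rows above 0 in a condition) and -0.37 with a minimum of 5 FPKM (10 rows). It was also -0.37 with the rows left out by name put back (18 rows), -0.28 without the row of hairpin symbols alone and -0.32 centred on the median of all rows. It was -0.26 without the Mir1291 and Snora34 row, a setting chosen after seeing the data. Tested rows alone, and leaving out chromosomes 6, 10 and Y, on which no member lies, gave the same value. The count of rows at least 2-fold lower was 1, 3 with the rows left out by name put back and 0 without the Mir1291 and Snora34 row. The count called by the authors was 0, and 1, the Meg3 row, with those rows put back. The smallest deposited q was 0.236 among the host rows and 0.285 among the pathway genes. A limit on q of 0.1 or of 0.01 could thus only give 0 calls in both. A pseudocount cannot change the sign of a member, so both pseudocount settings bear on the size of the values alone. Of the 15 members 13 lay below 0 when centred. No paired analysis was possible because the table holds 1 value per condition, and for the same reason no clone could be left out in turn. Depth limits the rows of a few FPKM most, but could not be read from the table.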
